A study of Mus musculus with 4 samples.

Results

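Open chromatin at the starts of pseudogenes was examined by ATAC-seq, an assay in which a transposase inserts adapters into accessible DNA, in E14 mouse embryonic stem cells (ESCs). The regions were chosen by position. Peaks of all libraries that shared at least 1 bp were merged into 50704 autosomal regions. A region was kept when a transcript start of a gene whose GENCODE type contains the word pseudogene lay inside it or within 1000 bp of its edge, and no start of any other type of gene lay within that distance. This left 595 regions. Of these, 421 lay only at starts of processed pseudogenes, 79 only at starts of unprocessed pseudogenes, and 95 at starts of the remaining types or of several types, called other here.

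There were 4 libraries: 1 of cells with a short hairpin RNA against GFP (shGFP) and 3 of cells with a hairpin against luciferase (shLuc). The mouse genome holds neither target, and both are controls. All cells were wild-type E14 cells grown in serum with LIF, infected with a pLKO lentivirus and selected with puromycin. The shGFP group is a single library and neither the labels nor the methods state that the shLuc libraries came from separate cultures, so the spread between them may be technical.

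A processed pseudogene is a copy of a messenger RNA that was reverse transcribed and inserted into the genome. It has usually lost the introns, and it starts inside the copied transcript, so the promoter of the parent gene is as a rule left behind. An unprocessed pseudogene comes from duplication of genomic DNA and can carry introns and the promoter along. Unitary pseudogenes are genes that decayed without having been copied, and polymorphic pseudogenes are intact in some strains. Copies that are young differ little from each other, and a short read from such a copy has several equally good places in the genome.

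The lists hold positions and no peak height, so the width of a peak is its only value, and the read depth behind it is unknown from the lists. They held 41943 peaks for shGFP and 17860, 41401 and 31585 for shLuc 1, 2 and 3. The short list of shLuc 1 stood apart from the others. Of 8 stem cell markers, Zfp42 was open within 1 kb of a start in all 4 libraries, Esrrb and Klf4 in 2 each, and Pou5f1, Nanog, Sox2, Dppa5a and Tdgf1 in none. Of 6 markers of other cell types, Sox17 had one in all 4 libraries, Myod1 in 1, and Gata4, Gata6, Alb and Hba-a1 in none. Presence of a peak at a start therefore did not separate the marker lists.

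Sequences are shown first for copies of the same gene that recur along a chromosome. All are from GRCm38 and run in the direction of the pseudogene. The 5 sequences from chromosome 12 were chosen from 7 such regions after their values had been seen. Each holds 40 bases before and 80 bases from the annotated start of a pseudogene. The best match of these pseudogenes among coding genes was Asap2, which encodes a GTPase-activating protein for Arf GTPases. Capitals mark bases that differ from the commonest letter at that position among the 5. They lie at chr12:17882157-17882276, chr12:17993093-17993212, chr12:23189319-23189438 on the minus strand, chr12:23634396-23634515 on the minus strand and chr12:23800567-23800686 on the minus strand. The annotated start of each is the ATG that follows the first 40 bases.
Gm49326: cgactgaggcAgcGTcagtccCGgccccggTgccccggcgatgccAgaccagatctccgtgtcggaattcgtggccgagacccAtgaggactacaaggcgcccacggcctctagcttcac
Gm49330: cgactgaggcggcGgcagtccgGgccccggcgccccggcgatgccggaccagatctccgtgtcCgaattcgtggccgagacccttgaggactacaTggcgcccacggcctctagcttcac
Gm47385: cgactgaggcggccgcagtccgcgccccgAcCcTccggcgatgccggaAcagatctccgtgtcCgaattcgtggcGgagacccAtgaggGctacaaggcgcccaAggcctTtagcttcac
Gm49386: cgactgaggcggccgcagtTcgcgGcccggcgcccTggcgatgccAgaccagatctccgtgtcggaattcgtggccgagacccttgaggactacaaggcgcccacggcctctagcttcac
Gm47437: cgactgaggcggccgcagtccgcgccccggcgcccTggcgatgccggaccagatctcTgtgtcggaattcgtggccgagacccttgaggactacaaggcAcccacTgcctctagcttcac
Between 4 and 10 of the 120 bases differed from the commonest letter in each copy.

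The next 3 sequences, of 5 such regions and chosen in the same way, come from a cluster on chromosome 4, from copies of Tlk2, a kinase that acts on chromatin assembly factors, at chr4:145774679-145774798, chr4:146604172-146604291 and chr4:147125216-147125335. They hold the same window around the annotated start, with the same use of capitals.
Gm13243: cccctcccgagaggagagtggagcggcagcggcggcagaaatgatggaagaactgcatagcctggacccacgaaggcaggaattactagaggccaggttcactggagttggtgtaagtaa
Gm13240: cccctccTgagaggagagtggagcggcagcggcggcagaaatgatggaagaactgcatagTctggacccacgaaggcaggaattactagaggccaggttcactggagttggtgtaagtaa
Gm13162: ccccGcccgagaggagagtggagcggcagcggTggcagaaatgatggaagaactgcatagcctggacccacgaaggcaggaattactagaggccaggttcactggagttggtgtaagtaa
Gm13243 carried the commonest letter at all 120 positions, and the other two differed from it at 2 positions each.

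The last 5 sequences show members that differ in makeup, with each CpG in capitals. Gm42642 had the widest peaks of any processed member outside the clusters with little repeated sequence, and H2-Bl of the other types. For these, 100 bases on each side of the annotated start of the gene are shown (chr6:3182885-3183084 and chr17:36084124-36084323, both on the minus strand). For Gm17132, the widest unprocessed member, Gm13339, a match to the mitochondrial genome, and Gm18877, a processed member of low GC content, the central 200 bases of the region are shown (chr5:127875910-127876109, chr2:22589400-22589599 on the minus strand and chr7:20071385-20071584).
Gm42642: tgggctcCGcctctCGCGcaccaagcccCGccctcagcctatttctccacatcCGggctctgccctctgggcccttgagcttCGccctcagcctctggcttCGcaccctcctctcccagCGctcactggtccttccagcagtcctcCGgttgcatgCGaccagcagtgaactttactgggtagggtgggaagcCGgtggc
H2-Bl: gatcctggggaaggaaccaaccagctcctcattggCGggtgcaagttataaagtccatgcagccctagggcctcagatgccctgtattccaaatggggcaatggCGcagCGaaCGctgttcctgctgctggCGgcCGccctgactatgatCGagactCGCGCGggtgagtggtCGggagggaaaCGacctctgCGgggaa
Gm17132: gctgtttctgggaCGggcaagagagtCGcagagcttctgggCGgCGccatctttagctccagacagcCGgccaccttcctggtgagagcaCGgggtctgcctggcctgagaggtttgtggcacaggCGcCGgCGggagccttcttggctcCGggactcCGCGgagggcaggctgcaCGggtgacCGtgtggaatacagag
Gm13339: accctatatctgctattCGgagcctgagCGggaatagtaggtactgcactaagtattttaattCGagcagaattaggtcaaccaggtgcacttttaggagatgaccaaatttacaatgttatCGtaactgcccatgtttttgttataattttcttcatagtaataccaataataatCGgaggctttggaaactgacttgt
Gm18877: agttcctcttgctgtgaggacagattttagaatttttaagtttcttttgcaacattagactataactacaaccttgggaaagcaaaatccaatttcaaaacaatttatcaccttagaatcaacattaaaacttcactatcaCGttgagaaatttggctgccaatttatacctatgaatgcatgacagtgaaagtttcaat
The windows held 11, 13, 14, 5 and 1 CpGs.

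There were 11215 autosomal pseudogenes with no start of another gene type within 1 kb of a start of theirs. Of these, 603 had 1 of the kept regions at a start, or 5.38% (Wilson 95% interval 4.97 to 5.81, which covers counting error only). The share was 4.32% in shGFP and 3.11% ± 1.21 in shLuc (SD, n = 3), with shLuc 1 at 1.85%, shLuc 2 at 4.27% and shLuc 3 at 3.20%. The same count gave 59.4% of 20072 coding genes and 14.4% of 7505 long noncoding RNA (lncRNA) genes. For each kind, only regions near starts of that kind alone were counted. A gene whose open region also lay within 1 kb of another kind of start counted as not open. Open pseudogenes were counted in the same way below. The lowest pseudogene share of the 3 kinds held in each library: the shLuc means were 49.6% ± 6.09 for coding and 8.37% ± 3.40 for lncRNA genes.

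Transcribed pseudogenes were open more often than the 2 largest types. Of 481 transcribed pseudogenes 61 had an open region (12.7%, 10.0 to 15.9), against 430 of 8650 processed (4.97%, 4.53 to 5.45) and 85 of 1747 unprocessed pseudogenes (4.87%, 3.95 to 5.98). The last 2 intervals overlap nearly throughout. The shares in shGFP were 10.6%, 3.85% and 4.24%, and the shLuc means 9.01% ± 2.41, 2.70% ± 1.17 and 3.26% ± 1.09. The share was higher in some types with few genes, among them unitary pseudogenes with 5 of 24 and transcribed unitary pseudogenes, counted among the transcribed, with 4 of 15.

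Of the 595 regions, 148 had a peak in all 4 libraries, which is 24.9% (Wilson interval 21.6 to 28.5), beside 27.3% of all autosomal regions. A further 166 had a peak in only 1 library (27.9%), beside 28.4% of all autosomal regions. The members as a whole thus lay near the background. The regions at lncRNA starts had a similar spread, with 23.9% in all 4 libraries, while 56.9% of regions at coding starts and 14.5% of regions away from any start were found in all 4.

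The classes differed in this count, though processed and unprocessed members differed less where little sequence was repeated, as given below. Of the processed class 87 of 421 regions were in all 4 libraries (20.7%, 17.1 to 24.8), of the unprocessed class 26 of 79 (32.9%, 23.5 to 43.9) and of the other types 35 of 95 (36.8%, 27.8 to 46.9). The interval of the processed class ended above the start of that of the unprocessed class and below that of the other types. Regions share libraries and, in clusters, sequence, so they are not independent draws. Without shLuc 1 the share found in all remaining libraries was 50.5% of 578 regions, and the value of 24.9% therefore rests on that short list. This is no trait of the members alone: 24.2% of them lacked a peak only in shLuc 1, beside 22.1% of all autosomal regions.

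**Figure D1:**
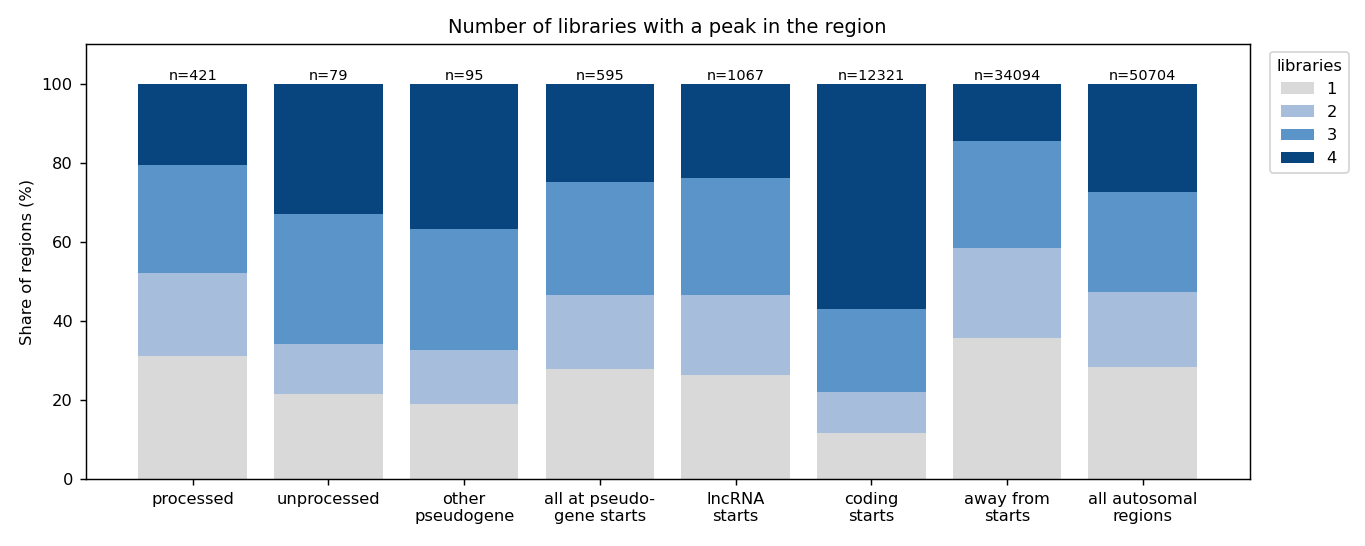
Share of regions with a peak in 1, 2, 3 or 4 libraries (stacked bars, percent of regions), for the pseudogene classes and for other groups of autosomal regions, with the number of regions above each bar. Processed members have the smallest dark segment of the pseudogene classes, 20.7%, and regions at coding starts the largest of all groups shown, 56.9%.

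The annotated start lay inside 259 of the 595 regions (43.5%), against 88.7% of regions at coding starts and 61.2% at lncRNA starts. It lay inside 162 of 421 processed (38.5%), 33 of 79 unprocessed (41.8%) and 48 of 61 regions of transcribed types (78.7%). Of the 259 regions that held the start, 104 were in all 4 libraries (40.2%), and of the 336 that did not, 44 (13.1%). Read the other way, the start was inside 70.3% of the members in all 4 libraries, 42.4% of those in 3, 35.1% of those in 2 and 26.5% of those in 1. Median peak width rose from 408 bp in members in 1 library to 837 bp in those in 4. A wider region is more likely to reach a start, and regions at coding starts had a median width of 996 bp against 689 bp. How far width sets these shares was not tested.

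Where a peak was present, its median width in regions with the start inside was 738 bp in shGFP and 609, 762 and 715.5 bp in shLuc 1, 2 and 3. In regions with the start outside it was 524 bp and 521.5, 558.5 and 544 bp in the same order. The former were wider in 4 of 4 libraries, but a wider region is also more likely to reach a start. Mean GC content was 56.1% ± 6.45 (SD over 259 regions) in regions with the start inside, against 51.0% ± 7.58 (336 regions) in the others. The ratio of observed to expected CpG, which is low in most of the mouse genome and high in CpG islands, was 0.541 against 0.316. Region centres lay upstream of the nearest start in 280 of the 595 members (47.1%), with a median offset of 32 bp into the pseudogene.

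**Figure D2:**
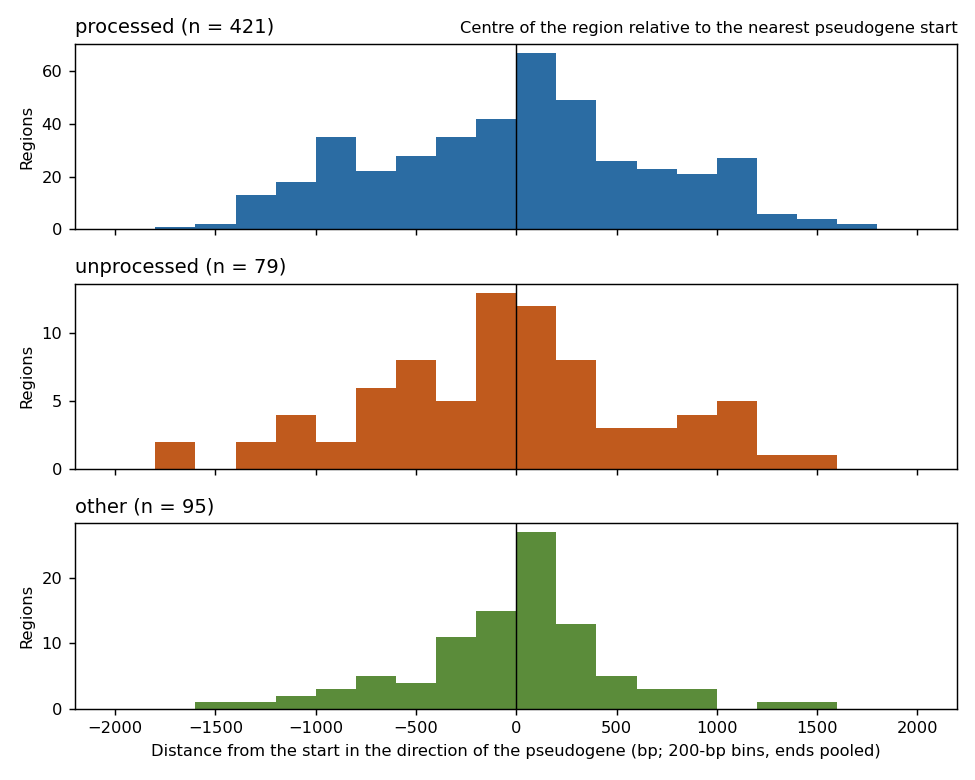
Centre of each region relative to the nearest pseudogene start (bp, positive in the direction of the pseudogene), in bins of 200 bp, for the 421 processed, 79 unprocessed and 95 other members. All 3 histograms peak beside 0, and the median offset over all members was 32 bp.

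At the edge of the rule, the regions of Gm12755 and Gm18892 lay 1000 bp and 998 bp from a start and were members, while those of Gm6822 and Gm19154 at 1003 bp and 1007 bp were not. Each of these 4 had a peak in 2 or 3 libraries. A total of 30 members lay over 900 bp from their start.

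In lower-case sequence, the soft-masked part of the reference that is mostly repeats, processed members had a lower mean share than unprocessed ones. The medians over regions were closer, 13.69% and 18.05%. The mean share of lower-case bases was 25.5% ± 2.31 in processed and 38.6% ± 4.72 in unprocessed members (mean and SD of 4 library means). The difference was 11.3 percentage points in shGFP and 10.2, 16.5 and 14.2 in shLuc 1, 2 and 3, with processed lower in 4 of 4 libraries (exact sign-flip permutation test over libraries, two-sided p = 0.13, rounded, the smallest that 4 libraries allow and so unable to pass 0.05). Regions at coding starts had 7.80% ± 0.345, at lncRNA starts 16.3% ± 0.356 and away from starts 38.8% ± 5.96 by the same measure, and all pseudogene members 25.9% ± 2.53. Members thus lay above coding and lncRNA starts and below regions away from starts in 4 of 4 libraries (exact sign-flip p = 0.13 each). Each library holds an overlapping part of the same regions, whose sequence is fixed. The differences by library are therefore not independent, and their SD is not the spread between regions. Over regions the SD was 29.9 points in processed and 38.2 in unprocessed members. The same limit holds for the comparisons of GC content and repeated words below.

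This order of the classes held only for the regions that did not contain the start. Where the start lay inside, processed members had 12.8% ± 0.317 lower-case bases and unprocessed members 8.43% ± 0.674 over the 4 libraries, with processed higher in each library. Where the start lay outside, the values were 36.9% ± 0.536 and 66.2% ± 4.93. Of the 46 unprocessed regions that did not hold their start, 31 were at least 50% lower case, and of the 33 that held it, none was. In processed regions these counts were 75 of 259 and 5 of 162. Over all members, 122 regions were at least 50% lower case (20.5%), beside 19.1% of all autosomal regions and 1.06% of regions at coding starts.

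**Figure D3:**
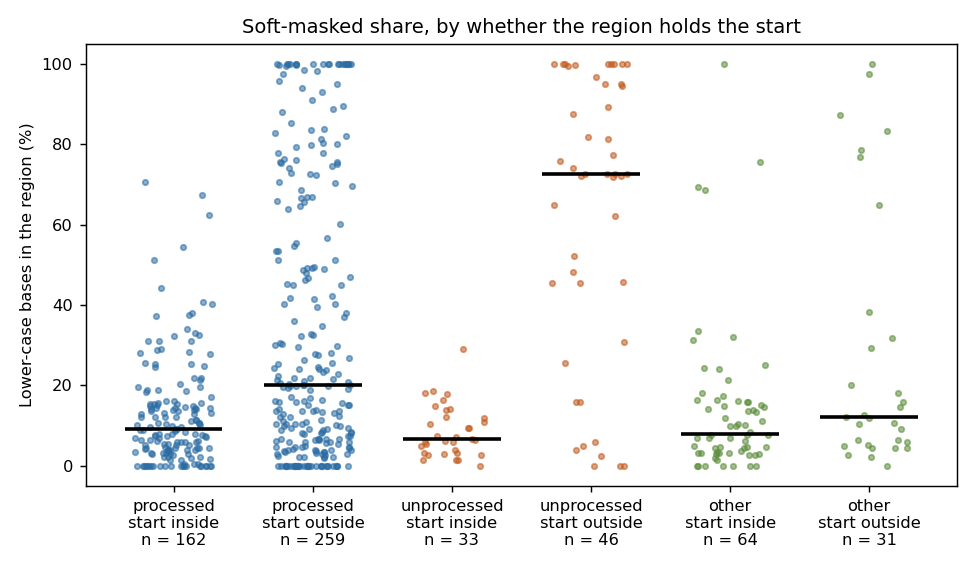
Lower-case bases as a percent of each region (1 point per region, line at the median), by class and by whether the region held the pseudogene start. Unprocessed regions that do not hold the start have a median of 72.6%, those that do 6.67%.

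GC content differed little between the classes. It was 53.7% ± 1.78 in processed and 54.6% ± 1.28 in unprocessed members, lower in processed members in 4 of 4 libraries but by 0.152 points in shLuc 1 and by 1.46 in shGFP (mean difference -0.888 ± 0.588, exact sign-flip p = 0.13). Members of the other types had 56.4% ± 1.06. All members together had 54.4% ± 1.60, between regions at coding starts (60.3% ± 0.541) and regions away from starts (51.6% ± 1.84), in 4 of 4 libraries. They lay 0.664 ± 0.638 points above lncRNA starts, a gap of about its own SD.

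Repeated sequence was measured with words of 50 bases: a word counts as repeated when it occurs more than once in the assembled chromosomes, on either strand. On this scale unprocessed members exceeded processed ones in 4 of 4 libraries, with 47.6% ± 3.51 of words repeated against 28.3% ± 4.27 (exact sign-flip p = 0.13). All members had 31.8% ± 3.54, against 2.12% ± 0.0935 at coding starts, 8.24% ± 1.94 at lncRNA starts and 24.4% ± 8.18 away from starts. At least 50% of words were repeated in 160 members (26.9%), beside 12.9% of all autosomal regions. Of these 160, 69 were in all 4 libraries (43.1%, 35.7 to 50.9), against 79 of the 435 less repeated members (18.2%, 14.8 to 22.1). In 22 of these 160 all words were repeated, and the rest also held words found once. According to the methods, a read with several equally good alignments was placed at 1 of them at random. A peak over repeated words therefore cannot be assigned with certainty to 1 copy rather than to its twins. How far this sets the library counts was not tested.

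Peaks were wider at unprocessed than at processed members. The median peak width was 593 bp against 663 bp in shGFP, 541 against 650 in shLuc 1, 643 against 719 in shLuc 2 and 621 against 709 in shLuc 3. Unprocessed members were wider in 4 of 4 libraries, by 85.9 ± 17.4 bp (exact sign-flip p = 0.13). Median peaks at coding starts were wider than those at all pseudogene members by 198 ± 68.9 bp, also in 4 of 4 libraries.

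Members with peaks in all 4 libraries had mean peak widths from 305.5 to 1979 bp. Among the widest processed members, Gm48667 (chr12:20196207-20197822) had peaks of 1590 bp in shGFP and 1291, 1610 and 1582 bp in shLuc 1, 2 and 3. Gm13244 (chr4:145744662-145746262), a copy of Ppp2r5a, which encodes a regulatory subunit of protein phosphatase 2A, had 1478, 1330, 1565 and 1545 bp in the same order. Gm47437, whose start sequence is given above, had 1404, 1403, 1357 and 1405 bp. For Gm13233, another Ppp2r5a copy (chr4:146579563-146581143), the peaks were 1581, 1027, 1473 and 1475 bp.

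Gm9165 (chr7:120505380-120507250) and AC157594.1 (chr17:81244240-81245865) complete the 6 widest processed members, and in neither did the region hold the start, which lay 722 and 873 bp away. The widths were 1602, 1128, 1528 and 1733 bp for Gm9165, in an intron of Abca16, and 1499, 1321, 1438 and 1610 bp for AC157594.1. Lower-case bases made up 64.7% of the former and 100% of the latter region.

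Gm17132, in an intron of Tmem132d, had the widest peaks of all unprocessed members with 1965 bp in shGFP and 1840, 2057 and 2053 bp in shLuc. Its region (chr5:127874977-127877043) was lower case and repeated throughout, and the start lay 290 bp downstream of it. Gm17204 (chr14:42586149-42587834) was alike, with widths of 1625, 1614, 1685 and 1664 bp, 99.6% lower-case bases and a start 947 bp away. The next 4, Gm49330, Gm49697, Gm20472 and AC163633.1, lay on chromosome 12, held their starts and had at most 3.07% lower-case bases. Their peaks were 1247 to 1654 bp wide in every library.

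H2-Bl, a polymorphic pseudogene of the major histocompatibility complex (MHC) class I family, led the other types (chr17:36082704-36084488) with widths of 1755, 1434, 1755 and 1450 bp. It was followed by 6820431F20Rik with 1755, 1201, 1624 and 1455 bp, Nlrp5-ps with 1333, 1204, 1483 and 1310 bp and 2610005L07Rik with 1324, 1088, 1537 and 1323 bp, all transcribed unprocessed pseudogenes with the start inside the region. Nlrp5-ps also had, with Gm47393, the highest GC content of the members in all 4 libraries, 68.8% and 69.6%. The lowest, 34.5% and 36.8%, were in Gm13341 and Gm18877. In 15 of these 16 widest members, and in 114 of the 148 in all 4 libraries, the narrowest peak was that of shLuc 1.

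**Figure D4:**
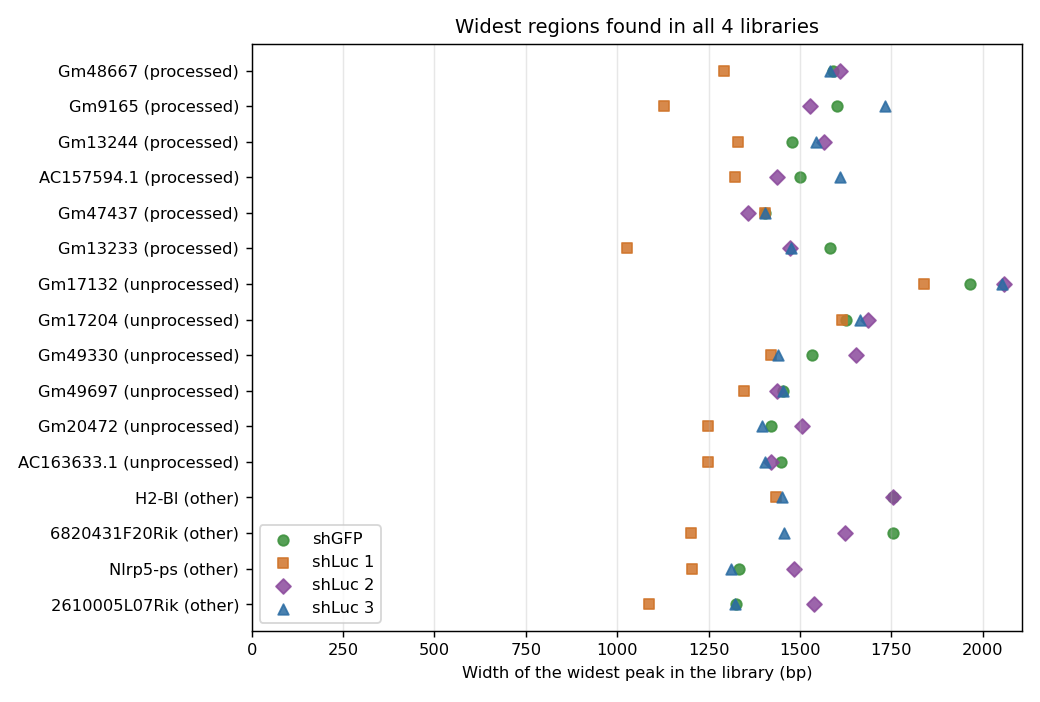
Width of the widest peak (bp) in each library for the 6 widest processed, 6 widest unprocessed and 4 widest other members found in all 4 libraries. The square of shLuc 1 is the leftmost point for 15 of the 16 members, and Gm17132 has the widest peaks, 1840 to 2057 bp.

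Members were grouped along the chromosomes. In 6 clusters, each of at least 5 members no more than 500 kb from the next, lay 61 members (10.3%), and 40 of these were in all 4 libraries (65.6%, 53.0 to 76.3), against 108 of the 534 outside (20.2%, 17.0 to 23.8). The start was inside 52 of the 61 regions. These clusters were defined after the positions of the members had been seen.

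The largest cluster lay at chr4:145463419-147739160 and held 19 members over 2.28 Mb, of which 16 were in all 4 libraries. It consisted of interspersed copies of 4 genes: 6 regions whose best coding match was Smarca5, the ATPase of ISWI chromatin remodelling complexes, 4 of Ppp2r5a, 5 of Tlk2 and 4 of Cdv3. All 5 Tlk2 regions also lay at the start of a Vmn2r pseudogene, from the V2R family of vomeronasal receptors. The copies were 96.6 to 98.1% identical to Smarca5, 95.03 to 96.45% to Ppp2r5a, 93.98 to 95.74% to Tlk2 and 86.2 to 88.4% to Cdv3. The ratio of observed to expected CpG had a median of 0.833 over the 19 regions, beside a mean of 0.674 at coding starts. It differed by gene, from 0.838 to 0.973 in the Smarca5 copies, 0.821 to 0.893 in the Ppp2r5a copies and 0.697 to 0.837 in the Cdv3 copies, all above that mean, to 0.535 to 0.588 in the Tlk2 copies, all below it.

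Peaks at the Smarca5 copies had median widths of 968.5 bp in shGFP and 754, 926 and 956.5 bp in shLuc 1, 2 and 3. Smarca5-ps, with 1010 bp in shGFP and 863 and 904 bp in shLuc 2 and 3, had no peak in shLuc 1, and the other 5 copies had a peak in every library. At the Ppp2r5a copies the medians were 1394, 1263, 1478 and 1475 bp, and at the Tlk2 copies 952, 723, 910 and 950 bp. Gm13142, a Ppp2r5a copy, had peaks of 865 bp in shGFP and 1483 bp in shLuc 2 and none in the other libraries. The parent genes Smarca5, Ppp2r5a, Tlk2 and Cdv3 each had an open region at a start of their own. Over the cluster, a median of 46.9% of a member's words also occurred in another open region.

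On chromosome 12, both in the cluster at chr12:21543023-23969411 (12 members, 10 in all 4 libraries) and outside it, 21 members between 17881269 and 23969411 were joined by sequence similarity. Of these, 19 were in all 4 libraries. Median identity was 90.2% over the pairs that passed a limit of 80% identity over at least 50% of the shorter region. Pairs below that limit were left out of this median. The 21 members were annotated partly as processed (12), partly as unprocessed (7) and partly as other types (2). Their best coding matches were Asap2 and Gm21863 for 7 regions each and 9030624G23Rik for 4. Median GC content was 66.6%, the median share of lower-case bases 2.88%, and 61.2% of words were repeated. The 7 Asap2 copies had a peak in every library, with median widths of 1406 bp in shGFP and 1180, 1357 and 1382 bp in shLuc. Gm17330, the last copy along the chromosome, had a peak of 1257 bp in shGFP and none in the 3 shLuc libraries, although 88.2% of its words were repeated and 87.1% also occurred in other open regions.

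**Figure D5:**
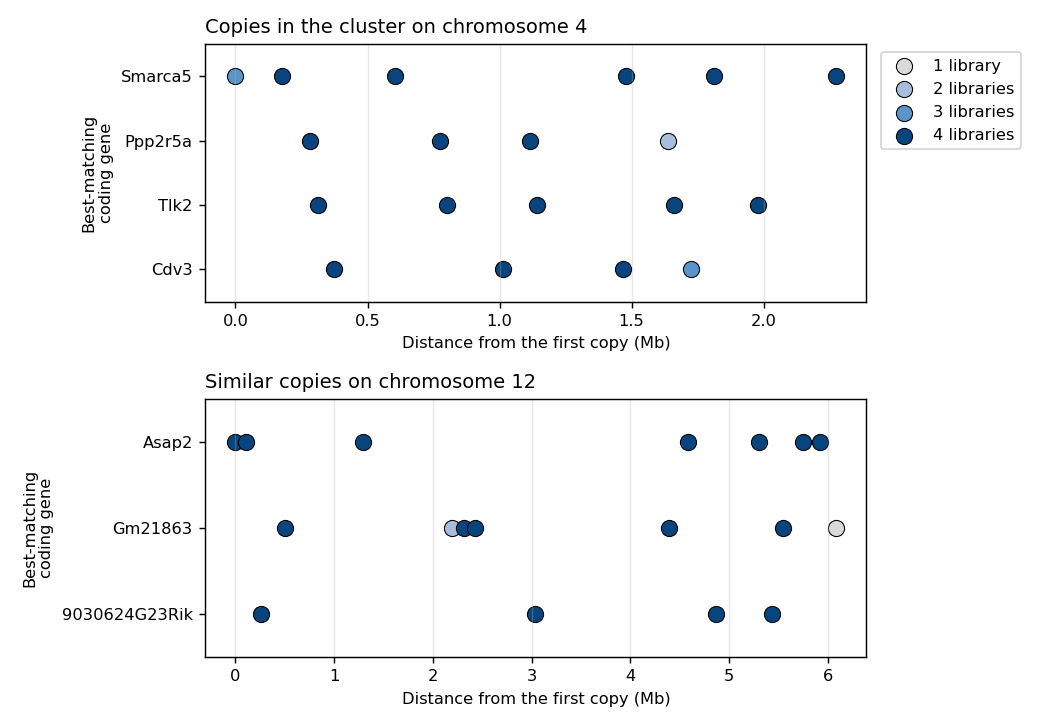
Copies in the cluster on chromosome 4 and similar copies inside and outside the cluster on chromosome 12, by their best-matching coding gene (rows) and distance from the first copy (Mb), coloured by the number of libraries with a peak. On chromosome 4 the copies of 4 genes are interspersed over 2.28 Mb, and in both panels most points have the darkest shade, for all 4 libraries.

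The remaining clusters were smaller. At chr14:42542628-44117008, 11 members included 5 with Cdk6, a cyclin-dependent kinase, as best match, of which Gm48134 was in all 4 libraries with 1148, 833, 1163 and 1082 bp. At chr8:19784138-20558064, 4 of 6 members were in all 4 libraries, among them Gm21769 with 1415, 1016, 1396 and 1448 bp. At chr1:6382633-7591925 there were 6 copies of 6 different genes, 3 of them in all 4 libraries, such as Gm19026, a copy of Camsap1, which encodes a protein of microtubule minus ends, with 795, 654, 1036 and 715 bp. At chr17:36082704-36708404, in the MHC, 2 of 7 members were in all 4 libraries. The median share of repeated words there was 0, against 74.4% in the chromosome 14 and 75.6% in the chromosome 8 cluster.

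Sequence similarity also joined members on different chromosomes. With 80% identity over at least 50% of the shorter region as the limit, 199 members fell into 37 families, and 88 of them were in all 4 libraries (44.2%), against 15.2% of the 396 members with no relative. The largest family had 31 members on 16 chromosomes, 22 at processed, 7 at unprocessed and 2 at other starts, and none of the 31 regions held the start. All were at least 50% lower case, with a median of 98.6%, median GC content of 59.3% and 88.2% of words repeated, and 12 were in all 4 libraries. The next in spread, 20 members on 11 chromosomes, had a median GC content of 42.3% and an observed to expected CpG ratio of 0.124, and only 3 were in all 4 libraries. It too was at least 50% lower case throughout and held no start. The median distance from region to start was 499 bp in the family of 31 and 476.5 bp in the family of 20, and the region centre lay within the pseudogene body in 4 and 3 of them.

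For the processed class, the best match among coding genes was taken as the parent when it covered at least 50% of the exonic bases. Of 424 processed pseudogenes at these regions 392 had a parent (92.5%), with a median identity of 93.4%, and for 327 of these 392 pseudogenes (83.4%) the parent had an open region within 1 kb of a start. Several pseudogenes shared a parent, and of the 274 different parents 238 were open (86.9%, 82.4 to 90.4). For all 8650 annotated processed pseudogenes the parent was open for 79.3% of those with a parent, and 82.5% of 2352 different parents were open (80.9 to 84.0). Their median identity to the parent was 89.2%. Of 70 unprocessed pseudogenes with a parent, 35 had an open parent (50.0%), against 25.5% of all 1475 unprocessed pseudogenes with a parent. By different parents, 24 of 57 were open (42.1%, 30.19 to 55.02), against 24.6% of 809 (21.8 to 27.7). In all these shares only autosomal regions were searched, so a parent on chromosome X or Y counted as not open. With all 21 chromosomes, for pseudogenes and parents alike, the share of 83.4% became 86.3%. The annotated start was an ATG in 197 of 430 open processed pseudogenes (45.8%) and in 3163 of 8220 that had no open region (38.5%).

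Pseudogenes were next counted by parent family, set by the name of the parent gene. All pseudogenes with a parent had an open region in 5.22% of cases (504 of 9650). Copies of cytosolic ribosomal protein genes, the largest family, had one in 4.11% (81 of 1972), and of these 81 regions 6 were in all 4 libraries, 35 in only 1, and 16 held the start. Copies of chromatin and high mobility group genes reached 5.73% (22 of 384), translation factors 4.70% (7 of 149), hnRNP and splicing factors 3.66% (6 of 164), oxidative phosphorylation 1.96% (4 of 204), chaperones 1.79% (2 of 112), cytoskeleton genes 2.25% (2 of 89) and glycolysis 1.73% (5 of 289). Zinc finger genes had 7.14% (10 of 140), olfactory and vomeronasal receptors 4.84% (31 of 640) and MHC genes 20.8% (5 of 24). The start lay inside 6 of the zinc finger, 1 of the receptor and 3 of the MHC regions. Among the receptor regions, 14 had Vmn2r53 as best match, and none of these held the start. Of these 14, 10 belonged to the similarity family of 31 members described above. None of 45 copies of pluripotency genes (Pou5f1, Nanog, Dppa genes, Zfp42 and Tdgf1) had an open region, which by 3 counts of 45 allows a share of up to 6.67%. The families were not tested against each other.

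Within these families the widest examples varied in whether the start was covered. Gm38158, a copy of the chromatin protein gene Hmga2, held its start and had peaks of 1026, 473, 843 and 1146 bp, in an intron of Sdccag8. Gm3835, 1 of 7 regions at copies of H3f3a, which encodes histone H3.3, held its start in an intron of Calr3 with 448, 290, 527 and 325 bp, and 6 of the 7 regions held the start. Gm2939, the widest splicing factor copy with 1141, 988, 1019 and 1062 bp, lay 914 bp from its start in sequence that was lower case and repeated throughout. Gm8241, a copy of Dnajc27, had 876, 783, 732 and 745 bp at 631 bp from the start, with 2.11% lower-case bases. Gm42779 and Gm14143, copies of Eif5a and Eif4ebp1, were placed with the translation factors by name only. At both, and at the glycolysis copies Gm7765 and Gm43382, there were peaks in shGFP, shLuc 2 and shLuc 3 and none in shLuc 1.

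Members with little repeated sequence were also found in all 4 libraries. Of 317 processed members with under 50% repeated words 49 were in all 4 libraries (15.5%, 11.9 to 19.9), and 142 processed members had no repeated word at all. Gm42642, with 6.63% repeated words, had 1543, 946, 1429 and 1499 bp. Gm15645, a transcribed copy of Odc1, which encodes the rate-limiting enzyme of polyamine synthesis, had no repeated word and no lower-case base, held its start in an exon of Dchs1, and had peaks of 1330, 1487 and 1431 bp in shGFP, shLuc 2 and shLuc 3 and none in shLuc 1. Polymorphic pseudogenes, 9 regions in all, included Hyi with 1290, 725, 1070 and 991 bp and Atp10d, which encodes a phospholipid-transporting ATPase, with 836, 526, 538 and 704 bp. Gbp11 had a peak in shGFP alone, of 421 bp. Gm15645, Hyi, Atp10d and Gbp11 were picked after their values had been seen, as were Gm3835, Smarca5-ps, Gm13142, Gm48134, Gm21769 and Gm19026 above.

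Both members on chromosome 2 at Gm13339, Gm13340 and Gm13341 matched the mitochondrial genome over 100% of their length, at 98.9 and 98.2% identity. These unprocessed pseudogenes lie in an intron of Myo3a. The regions, chr2:22587576-22588291 and chr2:22588823-22590178, had peaks of 714 bp in shGFP and 714, 705 and 710 bp in shLuc for the former, 1354 bp and 1347, 1354 and 1353 bp for the latter. Of their words 56.5% and 21.6% occurred more than once in the nuclear chromosomes, a count that leaves out the mitochondrial genome. The methods state that alignments to the mitochondrial genome were dropped. Mitochondrial DNA has no nucleosomes and is cut readily in ATAC-seq. Its part in these 2 peaks was not tested.

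Between hairpins, the share of a library's regions that lay at pseudogene starts was 1.181% in shGFP and 1.155, 1.181 and 1.145% in shLuc 1, 2 and 3, a mean of 1.16% ± 0.0187. The difference of 0.0202 points was about the SD of the shLuc libraries, and with 1 against 3 libraries no exact test can go below p = 0.25. Its sign was negative when the start had to lie inside the region (-0.0819 points), so no direction can be given. Only in shGFP were 66 members (11.1%), beside 11.7% of all autosomal regions, and only in shLuc 2, whose list is about as long, 67. The widest of those in shGFP alone were Gm17330 (1257 bp), Atp6v0c-ps2 (876 bp) and Gm5522 (804 bp).

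In all 3 shLuc libraries but not in shGFP were 4 members (0.672%), beside 0.343% of all autosomal regions. Gm12751 (chr4:34353319-34355096) had the widest peaks of these, 1778, 1717 and 1666 bp, with none in shGFP. Of its words 80.5% were repeated, the commonest of them 1378 times in the genome, and the start lay inside. AA543401, in an intron of Dock3, had 897, 666 and 798 bp, and Mospd4 560, 638 and 670 bp, neither with a repeated word. Cyp4f41-ps, added here to complete the 4, had 348, 357 and 262 bp. A peak just under the calling threshold in shGFP would also read as absent.

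Short sequence patterns were counted in the central 300 bp of each region, on both strands, as a description of the letters only. The CTCF core CANNAGNGG was found in 32.6% of members (29.0 to 36.5) and 31.6% of all autosomal regions, with 30.9% in processed and 43.0% (32.7 to 54.0) in unprocessed members. The YY1 core AANATGGCG was in 7.23% of members (5.41 to 9.59), 6.28% of all regions, 6.41% of processed and 12.7% (7.02 to 21.8) of unprocessed members. The octamer ATTTGCAT was in 2.02% of members and 3.06% of all regions. The NRF1 core GCGCATGCG was in 1 of 595 members, 0.168% (0.0297 to 0.946), against 0.637% of all regions and 1.78% of regions at coding starts. The intervals of the members include the value for all regions for each of the 4 patterns.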

How the data were processed

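Per the labels, the authors processed the reads with bcl2fastq, Bowtie2 and MACS2 and used build mm10. Their methods say that a read with several best alignments was placed at random among them and that mitochondrial alignments were dropped. The methods name a Bowtie2 version and a very sensitive end-to-end mode, while the versions of MACS2 and bcl2fastq, the peak threshold and read shifting were not given in the sources used here. The deposited lists hold 1 peak per line with chromosome, start and end, 1 list per library, and no count, height or score, so depth cannot be read from them and intervals cover counting error only.

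Peaks were merged across the 4 lists and assigned to starts of GENCODE release M21 genes with Python 3.11.15 (numpy 2.4.6, pandas 2.3.3). GC content, lower case and repeated words of 50 bases were read from the RefSeq GRCm38.p6 assembly, whose masking program was not given. Parents were sought with blastn 2.17.0 (E at most 1e-10, at least 50% of the exonic bases). Differences within libraries were tested with an exact sign-flip permutation test over 4 libraries, whose smallest two-sided p is 0.125. Merging, presence of peaks, peak widths, distances to starts and the counting of words were tested on simulated data. Shares carry Wilson 95% intervals.

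Named regions were the widest in all 4 libraries (6 processed, 6 unprocessed, 4 other), the 3 widest in shGFP alone, the 3 widest in shLuc alone, the 2 highest and 2 lowest in GC content, the 2 on each side of the distance limit, and up to 2 examples per parent family. Ribosomal protein genes were counted as a group and not named. Members and lists were chosen with earlier results of these data known. The clusters, similarity families, split by start position, ATG count, choice of printed sequences, mitochondrial match and Gm42642 were added after values had been seen. Chromosomes X and Y were left out. Alternatives changed the distance, merging, presence, word length, list length and libraries used.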

Additional observations from a re-analysis of the deposited data

Results flagged for a closer look

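Chromosome X was outside the comparisons, which used autosomes. It held 33 regions at pseudogene starts only among 1896 regions (1.74%), above the 3 that a count of 0 allows. All 4 lists contained 3 of the 33, and a single list contained 10. Of the 595 autosomal members 148 were in all 4 lists and 166 in a single list. These counts were not made for all regions on chromosome X, so the 33 have no background of their own. Chromosome Y had none among 114 regions.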

How the results depend on the processing

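Of 111 alternative values, 78 stayed within a set limit, 28 moved beyond it and 5 changed sign. The limit was 1.5 times for the number of regions, the Wilson 95% interval for the shares in all 4 libraries and of open parents, and 1 SD over libraries for the rest. Causes were not tested. With the region required to overlap the start there were 259 members, 40.15% in all 4 libraries, and 1.593% of pseudogenes were open in shLuc; processed minus unprocessed was 4.219 points for lower case (reversed), -0.07255 for GC, -10.89 for repeated words and -62.62 bp for width. With starts within 500 bp these were 28.57% in all 4 libraries, -7.307 and -15.13 points and -47.12 bp. With every list shortened to as many of its widest peaks as shLuc 1 has there were 331 members, 1.855% of pseudogenes open, a width difference of -57.62 bp and 79.4% of parents open. With presence at 50% of the region, 18.32% were in all 4 libraries and the width difference was -64.62 bp. Members with under 50% repeated words gave 18.16% and -9.598 points of lower case. Lower case over the central 200 bp gave -16.36 points, words of 36 bases -21.93 points, exclusion of other starts within 5 kb -115.8 bp, and gene starts in place of transcript starts 74.63% of parents open. The shGFP minus shLuc share reversed to -0.03882 (500 bp), -0.08192 (overlap), -0.1632 (widest peaks) and -0.0009579 points (presence at 50%). Leaving out 1 shLuc library gave 28.7 to 50.52% in all remaining libraries, the highest without shLuc 1, and 78.17 to 83.24% of parents open. Without the clustered members, an alternative chosen after seeing the data, 20.22% were in all 4 libraries and repeated words differed by -21.88 points. No paired analysis was possible because the single shGFP library shares no more than 1 replicate number with shLuc. The lists give no depth, so an absent peak cannot be told from one just under the threshold.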
